A study of Mus musculus with 37 samples.

Results

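The Cyp4a genes encode cytochrome P450 enzymes of the endoplasmic reticulum that hydroxylate the omega carbon of fatty acids. The members were all rows of the deposited liver count files that carry the symbols Cyp4a10, Cyp4a12a, Cyp4a12b, Cyp4a14, Cyp4a31 and Cyp4a32, which are 6 of 24421 gene rows. Of the 8 rows with a Cyp4a symbol, the other two, Cyp4a29 and Cyp4a30b, each had 1 count in all libraries together. All 6 members had enough counts to be tested in the fit of all libraries.

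Total RNA from the livers of C57BL/6 mice aged 2 months was sequenced in 37 libraries. The mice were wild type (WT) or carried Y665F or Y665H, single-residue substitutions in the SH2 domain of STAT5B, the main transcription factor of growth hormone signalling in liver. The males were 6 WT, 9 Y665F and 4 Y665H libraries, and each genotype had 6 female libraries. The labels do not say whether a substitution was on a single allele or both, and they name no treatment. They speak of mutant mice and of no tissue-specific driver, so effects within the liver and effects through other tissues cannot be told apart. The labels number the replicates but do not describe how each library relates to an animal, so p-values measure the spread between these libraries.

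Omega-hydroxylation starts the conversion of a fatty acid to a dicarboxylic acid, which is shortened in peroxisomes. It also makes 20-HETE from arachidonic acid, an eicosanoid that acts on blood vessels. In mice, Cyp4a10 and Cyp4a14 are classical targets of PPARA, the nuclear receptor for fatty acids, and they rise with fasting and with fibrate drugs. Cyp4a12a is known as a male-biased gene that depends on androgen and on the pulsed growth hormone of males, a pattern that STAT5B reads in hepatocytes, and its enzyme makes 20-HETE. The study's title places the work in cholesterol and lipid metabolism of the liver.

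The 6 genes lie together on chromosome 4 within 323 kb (GRCm38, GENCODE M21). In order along the chromosome they are Cyp4a12a (chr4:115299046-115332815, plus strand), Cyp4a12b (chr4:115411624-115439034, plus strand), Cyp4a14 (chr4:115486200-115496142, minus strand), Cyp4a10 (chr4:115518264-115533649, plus strand), Cyp4a31 (chr4:115563649-115579015, plus strand) and Cyp4a32 (chr4:115600969-115621602, plus strand). All are annotated as protein coding.

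Some of the copies are nearly identical, and this bears on the values of all members but Cyp4a14. The coding sequences of Cyp4a12a and Cyp4a12b were 98.49% identical, with 23 differing bases. Cyp4a10 was 96.59% identical to Cyp4a31 and 97.18% identical to Cyp4a32. Between Cyp4a12a and Cyp4a10 identity was 80.16%, and Cyp4a14 had 75.24% to 75.92% identity with the other members. The share of 100-base stretches of the main transcript that occur in no other gene was 64.18% for Cyp4a12a and 63.76% for Cyp4a12b, 87.26% for Cyp4a10, 91.78% for Cyp4a31, 79.94% for Cyp4a32 and 100% for Cyp4a14. The deposited files count reads that align to several places in a row of their own, outside the gene counts, so the values of the near-identical genes are uncertain in level and may be split between copies.

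To show how close the male-biased pair is, the following windows are the 60-base coding stretch with the most differences, 4 of 23. They are coding bases 630 to 689 in exon 6, written 5′ to 3′, with the differing bases in capitals (Cyp4a12a, chr4:115326628-115326687; Cyp4a12b, chr4:115432881-115432940; both plus strand).
Cyp4a12a: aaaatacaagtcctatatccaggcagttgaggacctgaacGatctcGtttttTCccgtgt
Cyp4a12b: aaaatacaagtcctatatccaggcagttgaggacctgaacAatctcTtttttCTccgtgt

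The second set is shown because Cyp4a10, Cyp4a31 and Cyp4a32 are close enough to share reads. The windows, again the 60 coding bases with the most differences, are bases 200 to 259 in exon 2, with 9 columns that differ among the 3 genes in capitals (Cyp4a10, chr4:115519640-115519699; Cyp4a31, chr4:115565020-115565079; Cyp4a32, chr4:115602270-115602329; all plus strand). Cyp4a10 and Cyp4a31 differ at 2 of these columns, Cyp4a10 and Cyp4a32 at 9, and Cyp4a31 and Cyp4a32 at 8, so the window mainly sets Cyp4a32 apart.
Cyp4a10: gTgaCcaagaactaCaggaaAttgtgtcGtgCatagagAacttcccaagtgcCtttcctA
Cyp4a31: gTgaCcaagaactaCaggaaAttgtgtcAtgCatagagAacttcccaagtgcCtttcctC
Cyp4a32: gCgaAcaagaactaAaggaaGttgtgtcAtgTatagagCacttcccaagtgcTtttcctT

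Levels are CPM, counts scaled to a common library size with TMM. Male libraries held 49141951 to 73937726 counts in gene rows and female libraries 24388434 to 40864173, so depth and sex cannot be told apart. Hepatocyte markers were abundant in every group, at a summed 80831 to 235166 CPM for the 9 listed genes found, and the kidney list, which matters because kidney also expresses Cyp4a genes, summed to 0.237 to 2.16 CPM, with its proximal tubule gene Kap at 0 in 5 of the 6 groups. In bulk liver, fewer cells of a type and less RNA per cell cannot be told apart. The threshold for a call was an adjusted p under 0.05 in edgeR's quasi-likelihood test, with Benjamini-Hochberg adjustment over all 15152 genes tested, and each adjusted p below comes from that test unless another is named. The comparisons of Y665F and Y665H with WT share the WT libraries of each sex. In fits of only the groups compared, the filter on low counts dropped Cyp4a12a and Cyp4a12b in Y665F against WT females. It also dropped both in Y665H against Y665F females and by sex in Y665F, and Cyp4a12b in Y665H against WT females. There these genes were tested only because other groups were in the fit.

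Wild-type livers differed by sex in all 6 members. Cyp4a12a and Cyp4a12b were male genes, Cyp4a10, Cyp4a14 and Cyp4a31 were higher in females, and Cyp4a32 was modestly higher in males. All 6 were called, 3 in each direction, where 49.7% of all genes tested were called (23% higher in males and 26.8% lower). Per kilobase of exon, WT males had 149 CPM of Cyp4a10, 145 of Cyp4a12a, 82.3 of Cyp4a14, 63.8 of Cyp4a12b, 24.5 of Cyp4a32 and 1.86 of Cyp4a31. In this order the ranges of neighbours overlapped from Cyp4a10 down to Cyp4a12b and not below it. The M21 model of Cyp4a32 is almost only coding sequence, so its level per kilobase may be overstated against the others.

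Cyp4a12a was at 267 CPM in the lowest WT male, 339 at the median and 460 in the highest. WT females had 0.181, 0.545 and 1.25 CPM. The ranges were far apart, and the log2 fold change of males over females was 9.06 (SE 0.76, adjusted p 5.78e-11). Cyp4a12b had 102, 170 and 178 CPM in WT males and 0, 0.0951 and 0.184 CPM in WT females, with a log2 fold change of 10.59 (SE 0.34, adjusted p 1.59e-23). Both genes were thus male-biased, and Cyp4a12b was the lower of the pair in males.

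The PPARA-responsive pair was less sexually biased and in the other direction. Cyp4a10 had 264, 306 and 388 CPM in WT males (lowest, median, highest) and 334, 538 and 724 CPM in WT females, a log2 fold change of -0.76 (SE 0.30, adjusted p 0.0324). Cyp4a14 had 125, 160 and 370 CPM in WT males and 316, 550 and 843 CPM in WT females, a log2 fold change of -1.41 (SE 0.53, adjusted p 0.0261). For both genes the male and female ranges overlapped. Cyp4a31 was lower in WT males without overlap (3.73 to 5.86 against 6.85 to 24.3 CPM; log2 fold change -1.63, SE 0.27, adjusted p 6.26e-06), and Cyp4a32 was 1.38-fold higher (adjusted p 0.0393). Without WT male 1 or WT male 5, 3 members were called. Leaving out single libraries, the Cyp4a10 difference was lost without WT males 1, 3, 5 or 6 or WT females 3, 4 or 6 (adjusted p up to 0.0818), Cyp4a14 without WT males 1, 3, 5 or 6 or WT females 3 or 6 (up to 0.0581), and Cyp4a32 without WT males 1, 2 or 5 or WT females 1, 2, 4 or 5 (up to 0.0939). The share of reads counted to no gene feature was 18.8% ± 0.893 in WT males and 11.6% ± 1.97 in WT females (SD, n = 6 each). With that share as a covariate none of these 3 differences was called: Cyp4a10 was at -0.22 (adjusted p 0.774), Cyp4a14 at -1.36 (adjusted p 0.262) and Cyp4a32 at 0.69 (adjusted p 0.0819). The Cyp4a10 call was also lost with limma-voom (adjusted p 0.0556), and the Cyp4a32 call with no filter on low counts (adjusted p 0.0531).

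**Figure D1:**
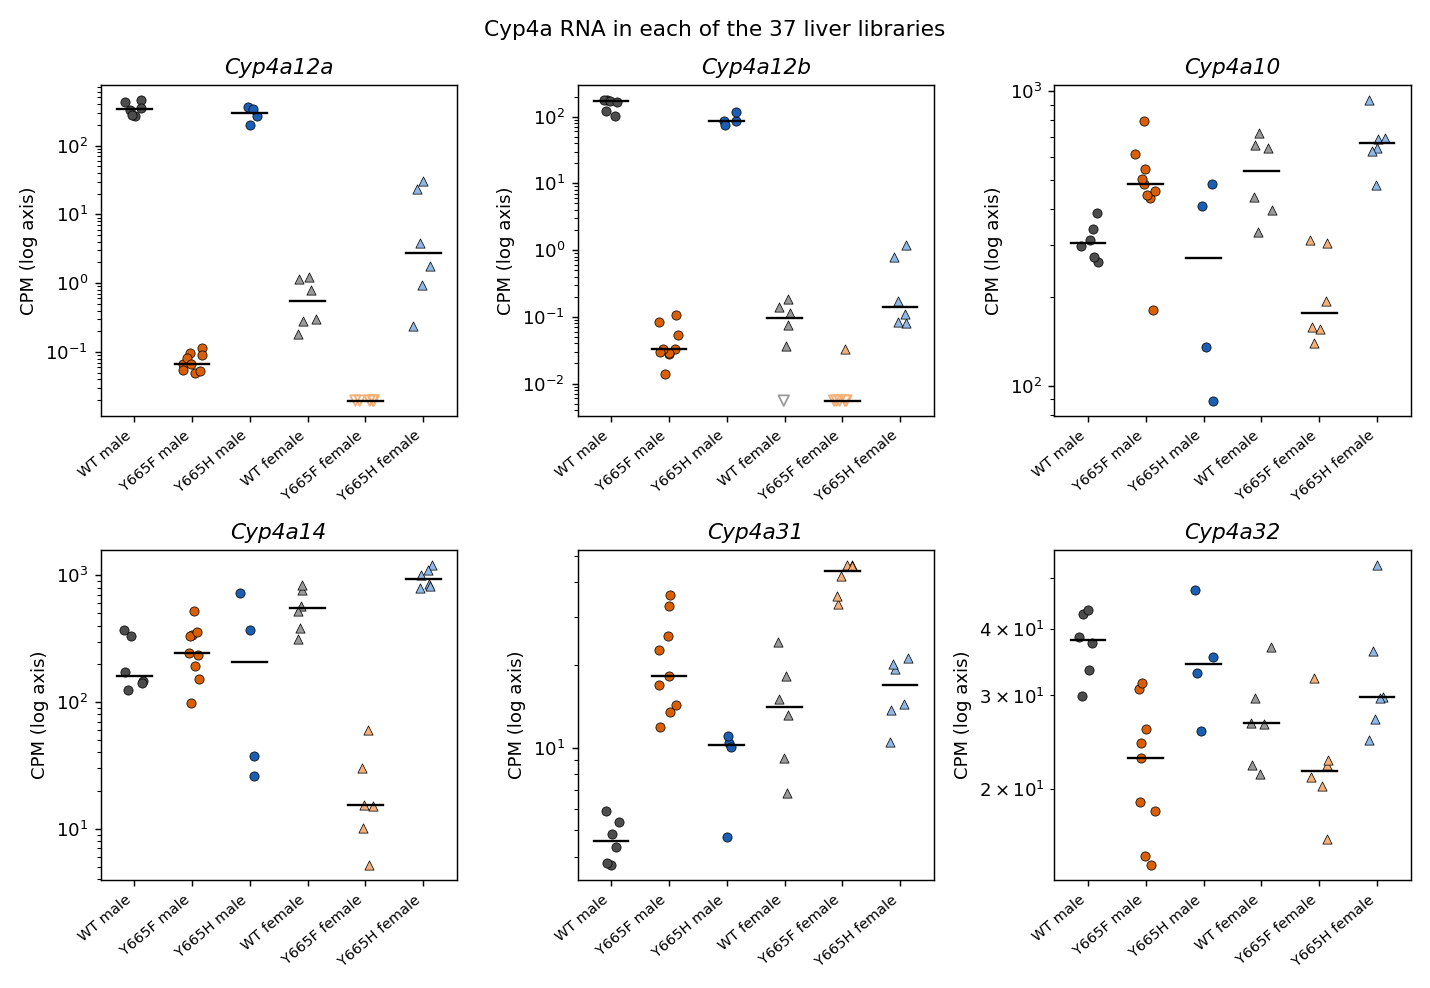
Each point is the CPM (log axis) of a Cyp4a gene in 1 library, circles for males and triangles for females, with a line at the group median; open downward triangles are libraries with 0 counts, drawn below the lowest value. Cyp4a12a and Cyp4a12b sat between 75.1 and 460 CPM in WT and Y665H males and near 0 in Y665F males, Cyp4a14 was lowest in Y665F females, and Cyp4a31 was highest there.

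In Y665F males the Cyp4a12 pair was almost lost while the rest of the family stayed expressed. Of the 6 members 5 were called, 2 higher and 3 lower, where 52.5% of all genes tested were called (27.2% higher and 25.3% lower). Cyp4a12a had 0.0492, 0.0670 and 0.113 CPM (lowest, median, highest of 9), from 3 to 8 counts per library and 47 in all, against 267 to 460 CPM in WT males. Its log2 fold change was -12.15 (SE 0.74, adjusted p 1.50e-14), the third lowest of the genes tested. Y665F males were thus below even the lowest WT female, at 0.181 CPM.

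Cyp4a12b had 0.0139, 0.0328 and 0.106 CPM in Y665F males, from 29 counts in all, with a log2 fold change of -11.62 (SE 0.28, adjusted p 2.88e-27). That p was the smallest of all genes in the comparison. Neither range overlapped with that of WT males. When both copies were summed before the fit, the log2 fold change was -11.99 (SE 0.66, adjusted p 4.72e-17), a fall of the same size.

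Cyp4a10 and Cyp4a14 did not follow the Cyp4a12 pair in Y665F males. Cyp4a10 had 181, 484 and 793 CPM and was called higher with a log2 fold change of 0.66 (SE 0.27, adjusted p 0.0429). In 8 of 9 Y665F male libraries it was above the WT male mean of 313 CPM, and Y665F male 2, at 181 CPM, was below every WT male. The call rests on single libraries: it was lost without WT male 1, 3, 4, 5 or 6 or Y665F male 5, 7, 8 or 9, with adjusted p up to 0.0919, with limma-voom (adjusted p 0.0890) and with the no-feature share as a covariate (0.43, adjusted p 0.263). Cyp4a14 had 98.4, 242 and 522 CPM against 125 to 370 CPM in WT males and was not called (log2 fold change 0.36, SE 0.48, adjusted p 0.550).

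Cyp4a31, a close copy of Cyp4a10, rose more than Cyp4a10 did. It had 11.9, 18.2 and 36.0 CPM in Y665F males against 3.73 to 5.86 CPM in WT males, with no overlap, and a log2 fold change of 2.19 (SE 0.25, adjusted p 5.06e-09). Cyp4a32 fell, from a median of 38.2 CPM in WT males to 22.9 CPM (log2 fold change -0.74, SE 0.17, adjusted p 0.000381), and all 9 Y665F males were below the WT mean. Cyp4a10, Cyp4a31 and Cyp4a32 summed before the fit gave a log2 fold change of 0.60 (SE 0.25, adjusted p 0.0429), which is opposite in sign to that of Cyp4a32.

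Y665F male 2 had the lowest Cyp4a10, Cyp4a14 and Cyp4a31 of its group, and it also stood apart in inflammation markers. Its Saa2, an acute phase gene, was at 774 CPM against 10.4 to 24.9 CPM in the other Y665F males, its acute phase list summed to 45696 CPM against 22876 to 27053 CPM, and its neutrophil list to 56.7 CPM against 2.31 to 6.80 CPM. In the group as a whole 11 of 16 acute phase genes were called higher (68.8%, against 27.2% of all genes tested) and 0 lower, and 10 of 17 circadian clock genes were called lower (58.8% against 25.3%) and 2 higher. The clock gene Dbp was at 5.23 to 60.3 CPM in Y665F males against 53.8 to 102 CPM in WT males. Cyp4a10 and Cyp4a14 transcripts are known to vary over the day. The part of time of day and of inflammation in the Cyp4a values was not tested.

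Without Y665F male 2, Y665H male 2 and Y665H male 3, the 3 libraries with Saa2 above 100 CPM, the Y665F male count was again 5. Cyp4a10 then had a log2 fold change of 0.75 (adjusted p 0.000991) and Cyp4a31 of 2.25 (adjusted p 1.13e-09). This setting was chosen after seeing the data.

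In Y665F females the family changed in another way. Of the 6 members 4 were called, 1 higher and 3 lower, where 41% of all genes tested were called (17.8% higher and 23.3% lower). Cyp4a14 fell most among the abundant members, with 5.14, 15.3 and 60.6 CPM (lowest, median, highest of 6) against 316, 550 and 843 CPM in WT females. The ranges did not overlap, and the log2 fold change was -4.64 (SE 0.61, adjusted p 1.35e-07).

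Cyp4a10 fell too, but less. Y665F females had 139, 177 and 313 CPM against 334, 538 and 724 CPM in WT females, without overlap, and the log2 fold change was -1.33 (SE 0.30, adjusted p 0.000558). The ratio of Cyp4a10 to Cyp4a14 counts was 5.16 to 27.1 per library in Y665F females and 0.837 to 1.11 in WT females. In Y665F males this ratio was 1.28 to 2.92, which overlapped with the 1.04 to 2.12 of WT males.

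Cyp4a31 moved against Cyp4a10. It had 33.4, 44.0 and 46.3 CPM in Y665F females, its highest mean of the 6 groups, against 6.85, 14.1 and 24.3 CPM in WT females. The ranges did not overlap and the log2 fold change was 1.53 (SE 0.26, adjusted p 1.17e-05). The ratio of Cyp4a31 to Cyp4a10 counts was 0.148 to 0.271 in Y665F females, above every other group, whose highest library reached 0.0742. Cyp4a10, Cyp4a31 and Cyp4a32 summed gave a log2 fold change of -1.06 (SE 0.27, adjusted p 0.00208), set mainly by the more abundant Cyp4a10. Cyp4a32 was not called (log2 fold change -0.27, SE 0.19, adjusted p 0.265).

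The low female counts of the Cyp4a12 pair were at or next to 0 in Y665F females. Cyp4a12a had 0 counts in all 6 Y665F females and 129 counts in the 6 WT females, so it was at least 38.0-fold lower when 3 counts over the group are taken as the floor. It was called (adjusted p 0.0435), but not without WT female 2, 5 or 6 or any of the 6 Y665F females in turn (adjusted p up to 0.0826), nor with no filter on low counts (adjusted p 0.0516), with limma-voom (adjusted p 0.0811), with the no-feature share as a covariate (adjusted p 0.0820) or in a test against a log2 fold change of 1 (adjusted p 0.576). Cyp4a12b had 1 count against 19, a ratio of 16.8 with a 95% exact counting interval from 2.67 to 698, and was not called (adjusted p 0.0788), though DESeq2 called it (-3.38, adjusted p 0.00392). The 1 count was in Y665F female 2, without which the ratio becomes a bound of at least 4.63-fold lower. In a fit of only Y665F and WT females neither gene passed the filter on low counts, so these tests depend on the other groups. The sum of both copies was called lower (-6.51, SE 2.27, adjusted p 0.0203), a fitted value that also rests on counts near 0. Such intervals and floors pool the counts of a group, so they hold for counting error alone and leave out the spread between libraries. As no molecular identifiers were read, the counting error itself may be larger.

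The effect of Y665F on the PPARA-responsive pair differed between the sexes by an interaction test, in which 27.7% of all genes tested were called (16.1% higher and 11.5% lower) and 2 of the members, both higher. The Cyp4a10 interaction, the male minus the female log2 fold change, was 1.99 (SE 0.41, adjusted p 0.000373), and the Cyp4a14 interaction was 5.00 (SE 0.76, adjusted p 5.72e-06). The sex bias of both was the reverse of that in WT: in Y665F livers Cyp4a10 was 2.34-fold higher in males (adjusted p 0.000540) and Cyp4a14 12.1-fold higher (adjusted p 2.71e-06). Of the 6 members 3 were called by sex in Y665F livers, where 43.1% of all genes tested were (22.8% higher in males and 20.3% lower), and the last was Cyp4a31, which stayed lower in males (log2 fold change -0.96, SE 0.22, adjusted p 0.000607). Cyp4a31 and Cyp4a32 interactions were not called (adjusted p 0.154 and 0.176), and neither were those of the Cyp4a12 pair in edgeR's test, where Y665F females had 0 and 1 counts. DESeq2 and limma-voom called both, at -5.55 (adjusted p 0.000138) and -7.16 (adjusted p 0.0305) for Cyp4a12a and at -8.34 (adjusted p 3.09e-11) and -9.57 (adjusted p 1.35e-07) for Cyp4a12b, and the size of these fitted values rests on how a count of 0 or 1 is treated.

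**Figure D2:**
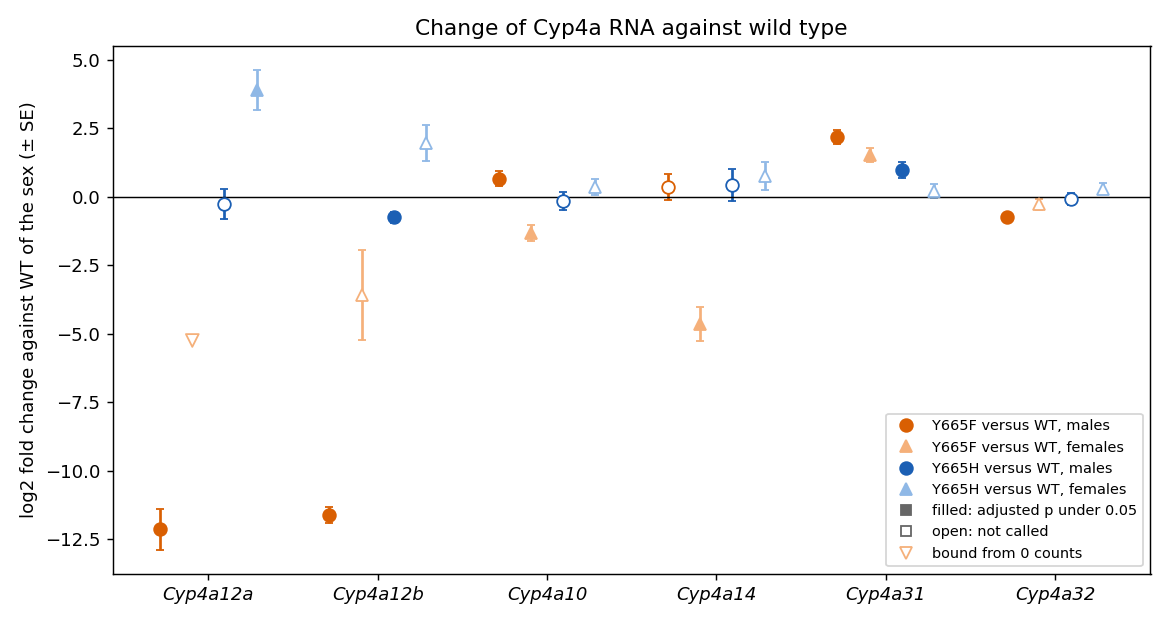
Log2 fold change of each Cyp4a gene against WT of the same sex, with its SE, for both substitutions in males (circles) and females (triangles); filled symbols were called at an adjusted p under 0.05, and the open downward triangle is the bound for Cyp4a12a in Y665F females, where no count was seen. Y665F males sat near -12 for the Cyp4a12 pair, while Cyp4a14 was lowest in Y665F females and Cyp4a31 was above 0 in both sexes with Y665F.

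Y665H males kept the Cyp4a12 genes. Of the 6 members 2 were called, 1 higher and 1 lower, where 8.4% of all genes tested were called (5.22% higher and 3.18% lower). Cyp4a12a had 264, 366, 196 and 338 CPM in Y665H males 1 to 4, with males 2 and 4 inside the WT male range and the others below it, and was not called (log2 fold change -0.27, SE 0.55, adjusted p 0.810). Cyp4a12b had 85.5, 85.7, 75.1 and 116 CPM against 102 to 178 CPM in WT males, with only Y665H male 4 inside the WT range, and was called lower with a log2 fold change of -0.75 (SE 0.20, adjusted p 0.0189).

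The Cyp4a12b call was lost without Y665H male 2 (adjusted p 0.0584) or Y665H male 3 (adjusted p 0.0802), with DESeq2 (adjusted p 0.410) and with the no-feature share as a covariate (adjusted p 0.146). The ratio of Cyp4a12a to Cyp4a12b counts was 2.61 to 4.27 in Y665H males and 1.88 to 2.63 in WT males, ranges that just overlapped. For the sum of both copies the log2 fold change was -0.40 (SE 0.51, adjusted p 0.681).

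Cyp4a10 and Cyp4a14 split the Y665H males into 2 high and 2 low libraries. Cyp4a14 was at 373, 37.7, 26.0 and 723 CPM in Y665H males 1 to 4, and Cyp4a10 at 408, 136, 89.2 and 485 CPM. Males 1 and 4 were above all WT males for both genes, and males 2 and 3 below all of them, with no library between. Neither gene was called (Cyp4a10 log2 fold change -0.17, SE 0.33, adjusted p 0.808; Cyp4a14 0.44, SE 0.57, adjusted p 0.694).

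The low libraries were those with high acute phase RNA. In Y665H males 8 of 16 acute phase genes were called higher (50%, against 5.22% of all genes tested) and 0 lower. Saa2 was at 7.85, 646, 500 and 11.5 CPM in Y665H males 1 to 4, the acute phase list summed to 18893, 32097, 31279 and 17252 CPM, and the neutrophil list to 0.838, 3.02, 7.15 and 1.17 CPM. Ppara itself was at 613, 449, 485 and 524 CPM, and Vnn1, a PPARA target, at 50.7, 33.8, 27.0 and 74.5 CPM. Acot1, another target, split as Vnn1 did (34.0, 16.9, 12.8 and 39.4 CPM). Pdk4 (3.35, 6.50, 3.19 and 3.96 CPM) and Fgf21 (0.250, 0.589, 0.816 and 0.609 CPM) did not. Over the list of PPARA targets used below, without the members, the median log2 difference from WT males was 0.16, 0.03, -0.14 and 0.26. Whether inflammation set the Cyp4a values was not tested. Without the 3 libraries with Saa2 above 100 CPM, 1 member was called in Y665H males, Cyp4a31 (log2 fold change 1.20, adjusted p 0.0391), and Cyp4a10 and Cyp4a14 were 0.50 and 1.34 above WT on the log2 scale, neither called (adjusted p 0.370 and 0.147).

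Cyp4a31 was called higher in Y665H males, at 10.4, 10.1, 4.73 and 11.1 CPM against 3.73 to 5.86 CPM in WT males, with male 3 inside the WT range (log2 fold change 0.97, SE 0.29, adjusted p 0.0329). It was not called without WT male 3, 4, 5 or 6 or without Y665H male 1, 2 or 4 (adjusted p up to 0.0984), with limma-voom (adjusted p 0.0662) or with the no-feature share as a covariate (0.62, adjusted p 0.307). Cyp4a32 had 47.4, 35.5, 25.8 and 33.1 CPM and was not called (log2 fold change -0.09, SE 0.21, adjusted p 0.845).

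Y665H females gained Cyp4a12a in some libraries. Of the 6 members 1 was called, higher, where 7.5% of all genes tested were called (4.4% higher and 3.1% lower). Cyp4a12a was at 0.239, 30.5, 0.929, 23.7, 3.79 and 1.79 CPM in Y665H females 1 to 6, against 0.181 to 1.25 CPM in WT females, so 4 of 6 were above the WT range and females 2 and 4 by far. The log2 fold change was 3.91 (SE 0.73, adjusted p 0.00255), the third highest of the genes tested. Even the highest Y665H female stayed below the lowest WT male, at 267 CPM. The call held without each of the 12 libraries in turn (adjusted p 0.000310 to 0.0125), with a log2 fold change of 3.20 without Y665H female 2, and it held at 3.04 with the no-feature share as a covariate (adjusted p 0.0345), but not when only the Y665H and WT females entered the fit (adjusted p 0.0837), nor with limma-voom (adjusted p 0.132) or in a test against a log2 fold change of 1 (adjusted p 0.121).

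Beside Cyp4a12a, some sex-biased genes are given for the same libraries. Mup20 and Scp2 are the 2 genes outside the family most like Cyp4a12a over all libraries, so their likeness here is no separate evidence. Mup20, a male-biased urinary protein gene, was at 754 and 233 CPM in Y665H females 2 and 4 and at 47.4 to 92.8 CPM in the other four, and Scp2, a sterol carrier gene that is higher in WT males, was at 2290 and 2822 CPM against 1547 to 1758 CPM. Cux2, a female-biased transcription factor, was at 23.2 and 6.31 CPM in females 2 and 4, and the other four ranged from 9.62 to 80.8 CPM, so female 2 was inside their range and female 4 below it, with 9.62 CPM in female 6, where Cyp4a12a was at 1.79 CPM. Bcl6, which is higher in WT males, did not follow Cyp4a12a. It was at 10.6 and 17.8 CPM in females 2 and 4 and at 10.6 to 33.4 CPM in the other four. The part of these genes in the Cyp4a12a values was not tested.

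Cyp4a12b had 0.0796 to 1.21 CPM in Y665H females, highest in females 4 and 2 (1.21 and 0.791 CPM), and was not called (log2 fold change 1.97, SE 0.65, adjusted p 0.0532). It was called without Y665H female 1, 3 or 6 (adjusted p 0.0251, 0.0367 and 0.0160) and by DESeq2 (adjusted p 0.0163), while without Y665H female 4 it was at 1.13 (adjusted p 0.298). The ratio of Cyp4a12a to Cyp4a12b counts was 3 to 38.5 per library in Y665H females and 2.5 to 9 in the 5 WT females with a Cyp4a12b count, so the ranges overlapped. From summed counts it was 23.4 in Y665H females, 6.79 in WT females and 2.29 in WT males.

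The interaction of Y665H with sex was called for both Cyp4a12 genes, where 5.24% of all genes tested were called (2.94% higher and 2.3% lower). It was -4.18 for Cyp4a12a (SE 0.94, adjusted p 0.00985) and -2.73 for Cyp4a12b (SE 0.67, adjusted p 0.0144), the latter not called without Y665H female 4 (-1.88, adjusted p 0.0777) or when only the groups compared entered the fit (adjusted p 0.0507). With limma-voom neither was called (adjusted p 0.118 and 0.109). The male excess of Cyp4a12a was 28.7-fold by group means and 108-fold by medians in Y665H livers, against 535-fold and 622-fold in WT. The Y665H value rests on females 2 and 4: the fitted log2 difference of 4.88 was 5.59 without female 2 and 5.37 without female 4.

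Cyp4a10 and Cyp4a14 were high in Y665H females but not called. Cyp4a14 had 791, 927 and 1212 CPM against 316, 550 and 843 CPM in WT females, and all 6 were above the WT mean (log2 fold change 0.76, SE 0.52, adjusted p 0.376). Cyp4a10 had 481, 666 and 935 CPM against 334, 538 and 724 CPM (log2 fold change 0.35, SE 0.30, adjusted p 0.482). Cyp4a31 (adjusted p 0.661) and Cyp4a32 (adjusted p 0.340) were not called either. By sex within Y665H, 5 of 6 members were called, where 30.9% of all genes tested were (14.2% higher in males and 16.7% lower), all with the WT direction. Of these, Cyp4a10, Cyp4a14 and Cyp4a31 were not called without the 3 libraries with high Saa2 (adjusted p 0.137, 0.315 and 0.194) or with the no-feature share as a covariate (adjusted p 0.157, 0.147 and 0.348). When only the groups compared entered the fit, Cyp4a10 and Cyp4a14 were not called (adjusted p 0.0562 and 0.135). Leaving out single libraries, Cyp4a14 was not called without Y665H male 2 or 3 (adjusted p 0.101 and 0.0985), nor Cyp4a31 without Y665H male 3 (adjusted p 0.112).

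Set directly against each other, the substitutions differed in most members. Among males 5 of 6 were called, where 41.7% of all genes tested were (20.5% higher in Y665H and 21.2% lower). Y665H males had more Cyp4a12a (log2 fold change 11.88, SE 0.75, adjusted p 6.91e-14), Cyp4a12b (10.86, SE 0.29, adjusted p 6.31e-26) and Cyp4a32 (0.66, SE 0.19, adjusted p 0.00540), and less Cyp4a31 (-1.23, SE 0.28, adjusted p 0.000489) and Cyp4a10. The Cyp4a10 difference (-0.82, adjusted p 0.0367) was lost without Y665F male 8 or 9 or Y665H male 2 or 3 (adjusted p up to 0.193), and without the 3 libraries with high Saa2 it was -0.25 (adjusted p 0.531). It was not called either when only the groups compared entered the fit (adjusted p 0.119). The Cyp4a32 difference was lost without Y665H male 1 (adjusted p 0.0550).

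Among females all 6 were called, where 56.5% of all genes tested were (30.5% higher in Y665H and 26% lower), with 5 higher in Y665H and Cyp4a31 lower (-1.32, SE 0.26, adjusted p 4.39e-05). Cyp4a14 was 42.3-fold higher (adjusted p 6.52e-09) and Cyp4a10 3.21-fold higher (adjusted p 1.71e-05) in Y665H females, without overlap in either gene. Cyp4a12a, with 1851 counts against 0, was at least 520-fold higher, and at least 346-fold without Y665H female 2 or 343-fold without Y665H female 4. Cyp4a12b had 79 counts against 1, a ratio of 66.6 with an exact counting interval from 11.6 to 2662. This ratio was 36.7 without Y665H female 4, and without Y665F female 2, which held the 1 count, it becomes a bound of at least 18.3. In a fit of only these female groups neither Cyp4a12 gene passed the filter on low counts. The Cyp4a32 call (adjusted p 0.0118) was lost without Y665H female 5 (adjusted p 0.0724) and with the no-feature share as a covariate (adjusted p 0.141).

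Ordered by mean CPM, Cyp4a12a was highest in WT males (352 ± 77.7, SD, n = 6), then Y665H males (291 ± 76.4, SD, n = 4), whose range overlapped with it. There followed Y665H females (10.1 ± 13.3, SD, n = 6), WT females (0.657 ± 0.466, SD, n = 6), Y665F males (0.0747 ± 0.0221, SD, n = 9) and Y665F females, all at 0. Among these the ranges of Y665H and WT females overlapped. For Cyp4a14 the order was Y665H females (963 ± 170, SD, n = 6), WT females (568 ± 206, SD, n = 6), Y665H males (290 ± 330, SD, n = 4), Y665F males (274 ± 128, SD, n = 9), WT males (214 ± 107, SD, n = 6) and Y665F females (22.7 ± 20.3, SD, n = 6). Only the last step was free of overlap. For Cyp4a10, Cyp4a31 and Cyp4a32 all neighbours in the order overlapped.

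By group means, the summed level of the family was lowest in Y665F females. Scaled by exon length, the 6 members summed in males to 466 ± 86.0 CPM per kilobase with WT (SD, n = 6), 363 ± 127 with Y665F (SD, n = 9) and 429 ± 240 with Y665H (SD, n = 4). In females the sums were 494 ± 158 with WT (SD, n = 6), 140 ± 46.8 with Y665F (SD, n = 6) and 725 ± 118 with Y665H (SD, n = 6). The Cyp4a12 pair took 45.0% of that sum in WT males, 44.8% in Y665H males and 0.0153% in Y665F males. In WT females Cyp4a10 took 51.2% and Cyp4a14 43.7%, and in Y665H females 44.3% and 51.2%. In Y665F females Cyp4a10 took 70.9%, Cyp4a31 12.5%, Cyp4a32 10.9% and Cyp4a14 5.68%.

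**Figure D3:**
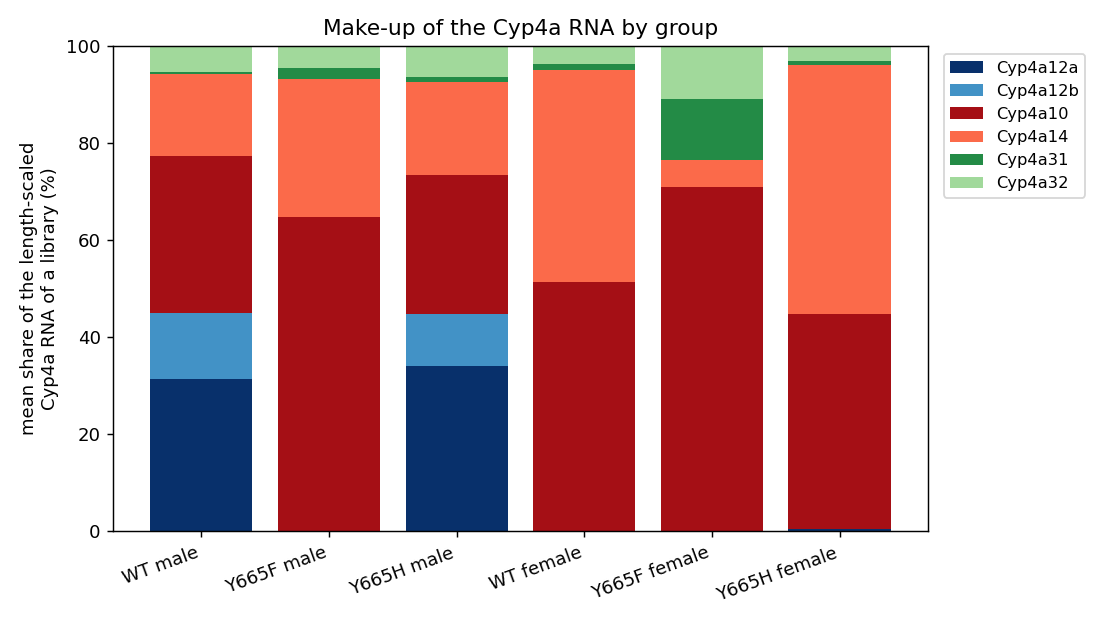
Mean share (%) of each Cyp4a gene in the summed Cyp4a RNA of a library, with each gene's CPM divided by its exon length; each bar is a group and the parts add to 100%. The blue parts, Cyp4a12a and Cyp4a12b, were visible in WT and Y665H males, and Y665F females had the largest green parts, Cyp4a31 and Cyp4a32.

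Across the 37 libraries, Cyp4a10 and Cyp4a14 went together (Pearson's r 0.87 on log2 CPM), with an r of 0.86 after the group means were taken away. Cyp4a12a and Cyp4a12b had an r of 0.96, and 0.72 after the group means were taken away. Between Cyp4a12a and Cyp4a10 r was -0.10, and 0.03 after the group means were taken away. Cyp4a31 had an r of 0.13 with Cyp4a10 over all libraries and 0.68 within groups, so these copies varied together within groups while their group levels parted. The Y665F and Y665H groups are in the same set of points as WT, and the points share library depth and scaling, and near-identical copies may share reads, so these values are descriptions.

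**Figure D4:**
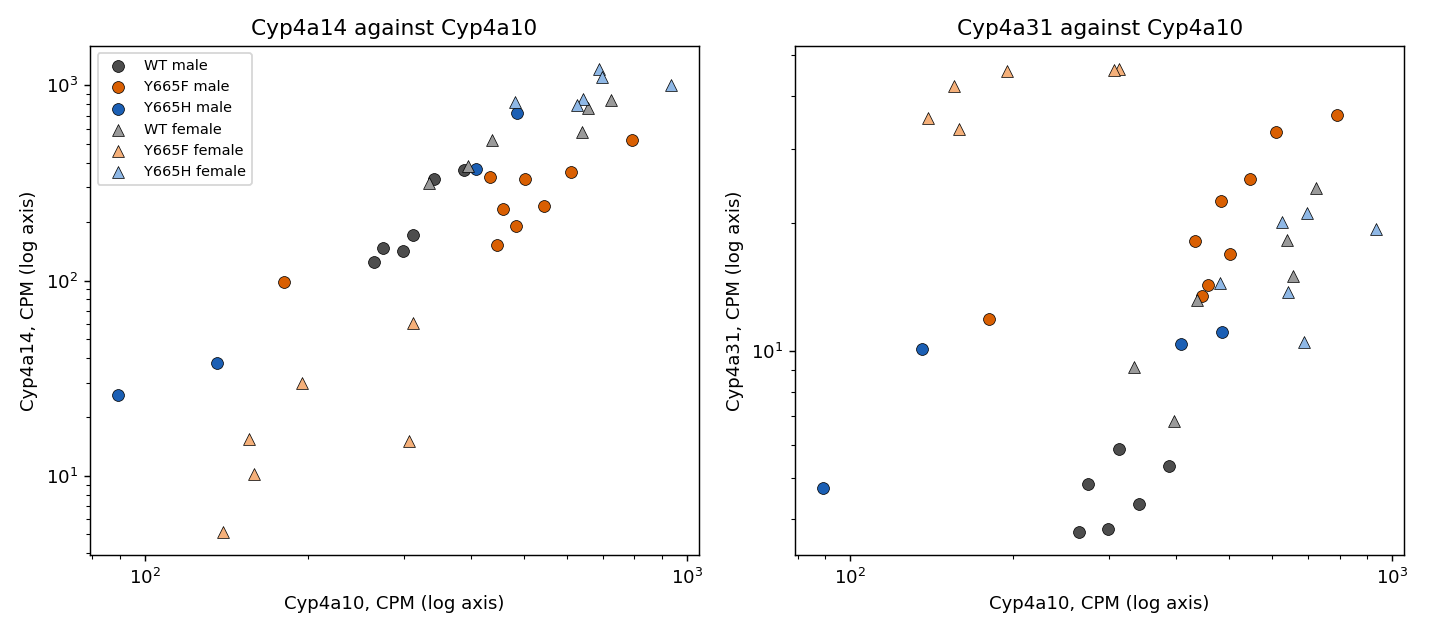
CPM of Cyp4a14 (left) and Cyp4a31 (right) against Cyp4a10, both axes log, 1 point per library, circles for males and triangles for females. Y665F females lay below the libraries with similar Cyp4a10 for Cyp4a14 and above them for Cyp4a31, and Y665H males 2 and 3 lay at the low end of Cyp4a10.

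Genes outside the family were ranked by the same correlation with the values of a member. The members themselves were not among the genes ranked. Of the 12117 genes compared, those most like Cyp4a12a over the 37 libraries were Mup20 (r 0.99), Scp2 (0.98), Mup1 (0.97), Mup14 (0.97) and Abcb10 (0.97). After the group means were taken away Mup20 was again first of these (0.77), followed by Slc12a2 (0.71) and Scp2 (0.70). Those most like Cyp4a10 were Acot1 (0.92), Aldh9a1 (0.88), Hpgd (0.85), Maob (0.85) and Pon1 (0.84), and within groups Acot1 (0.88), Acadl (0.85), Acot2 (0.85), Retsat (0.84) and Ech1 (0.84). Acot1, Acot2, Acadl and Ech1 encode enzymes of fatty acid metabolism. For Cyp4a14 they were Hpgd (0.93), Cyp2c38 (0.92), Abcc3 (0.91), L3hypdh (0.88) and Pvrl3 (0.87), and within groups Slc16a7 (0.79), Sh3bgrl2 (0.77), Nmt2 (0.76), Acot2 (0.74) and Acot1 (0.74).

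The PPARA targets, a list of 76 genes without the members of which 71 were tested, had calls in both directions in Y665F livers. In Y665F males 16 were called higher (22.5%, against 27.2% of all genes tested) and 26 lower (36.6% against 25.3%), with a median log2 fold change of -0.07 (-0.01 over all genes tested). In Y665F females, where Cyp4a10 and Cyp4a14 were called lower, 5 targets were higher (7.04% against 17.8%) and 34 lower (47.9% against 23.3%), with a median of -0.23 (-0.02 over all genes tested). In Y665H males 2 were higher (2.82% against 5.22%) and 1 lower (1.41% against 3.18%), and in Y665H females 6 were higher (8.45% against 4.4%) and 0 lower (3.1% of all genes tested), with medians of 0.11 and 0.16.

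In Y665F males the highest called targets were Acot3 (log2 fold change 5.29), Abcd2 (4.00) and Ucp2 (2.27), and the lowest Retsat (-1.54), Fitm1 (-1.28) and Acaa1b (-0.98). Acot3 is an acyl-CoA thioesterase, Abcd2 a peroxisomal fatty acid transporter and Acaa1b a peroxisomal thiolase. Acot3 was at 80.7 to 269 CPM in Y665F males against 2.63 to 7.40 CPM in WT males and 60.1 to 265 CPM in WT females, and Abcd2 at 98.2 to 148 CPM against 4.59 to 10.4 and 94.0 to 133 CPM. For both genes the range of Y665F males was above that of WT males and overlapped with that of WT females.

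Of the common readouts of PPARA in Y665F males, Pdk4 (1.84, adjusted p 4.29e-07), Fgf21 (1.79, adjusted p 0.00221) and Vnn1 (1.09, adjusted p 0.000218) were called higher. Fgf21 was low in level, at 0.0939 to 0.413 CPM in WT males and 0.297 to 2.26 CPM in Y665F males, highest in male 9. Ehhadh, Cpt1a, Acot1 and Plin2 were not called, with log2 fold changes of -0.01, 0.02, 0.59 and 0.30. In Y665F females the lowest targets were Retsat (-1.996), Acaa1b (-0.95) and Crot (-0.94), the highest Ucp2 (1.96), Cd36 (1.53) and Vnn3 (0.82), and of the readouts Acot1 (-0.79, adjusted p 0.0296) and Ehhadh (-0.53, adjusted p 0.00228) were called lower. Pdk4 (0.68), Vnn1 (0.57), Plin2 (0.0030), Cpt1a (-0.23) and Fgf21 (-0.61) were not called in Y665F females (adjusted p 0.0951, 0.0707, 0.990, 0.150 and 0.434). The lowest of the list, Retsat, was thus at -1.996, against -4.64 for Cyp4a14.

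With Y665H the called targets were Abcd2 (1.51) and Mgll (0.35) higher and Acadsb (-0.26) lower in males, and in females Cd36 (1.19), Fitm1 (1.03) and Retsat (0.65) were the highest of those called.

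The omega-oxidation list covers the enzymes around the P450 step, such as its electron donor Por, alcohol and aldehyde dehydrogenases and peroxisomal enzymes. It has 34 genes, all tested, and shares 18 with the PPARA targets. In Y665F males 13 were called higher and 13 lower, in Y665F females 4 higher and 16 lower, in Y665H males 3 higher and 1 lower, and in Y665H females 7 higher and 0 lower. As percentages these are 38.2 and 38.2 in Y665F males, where 27.2 and 25.3 of all genes tested were called higher and lower, and 11.8 and 47.1 in Y665F females, against 17.8 and 23.3. For Y665H they are 8.82 and 2.94 in males, against 5.22 and 3.18, and 20.6 and 0 in females, against 4.4 and 3.1. The list medians were -0.04, -0.13, 0.10 and 0.16 in that order, with -0.01, -0.02, 0.0062 and 0.0047 over all genes tested. Nudt7, a peroxisomal CoA hydrolase, fell in Y665F males (-2.59, adjusted p 6.20e-20) and females (-2.53, adjusted p 2.44e-17), and Adh4, an alcohol dehydrogenase, fell in both (-0.80 and -0.98). Scp2 fell in males (-1.65). Highest in Y665F males were Acot3, Abcd2 and Acot4 (1.97), and in Y665F females Acot6 (1.16), Cyb5r3 (0.86) and Acot4 (0.74), where Acot4 and Acot6 are acyl-CoA thioesterases. In Y665H males Abcd2, Acot6 (0.71) and Adh4 (0.38) were called higher and Adh7, an alcohol dehydrogenase, lower (-0.52). In Y665H females the highest were Nudt7 (0.47), Scp2 (0.46) and Nudt19 (0.33). Por was higher in Y665F males (0.47, adjusted p 0.00253) and was otherwise not called against WT.

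A list of other P450s that act on arachidonic acid, with 2 epoxide hydrolases that act on their products, was mostly lower with Y665F. Of 14 tested, 0 were called higher and 12 lower in Y665F males, and 0 higher and 13 lower in Y665F females, with medians of -0.66 and -0.63 (-0.01 and -0.02 over all genes tested). The lower calls are 85.7% and 92.9% of the list, against 25.3% and 23.3% of all genes tested. The lowest in Y665F females, chosen after its value was seen, was Cyp2c38 (-4.22, SE 0.37, adjusted p 1.88e-11), which was not called in Y665F males (0.25). In Y665H males 0 were higher and 3 lower (21.4%, against 3.18% of all genes tested), and in Y665H females 3 were higher (21.4% against 4.4%) and 0 lower.

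**Figure D5:**
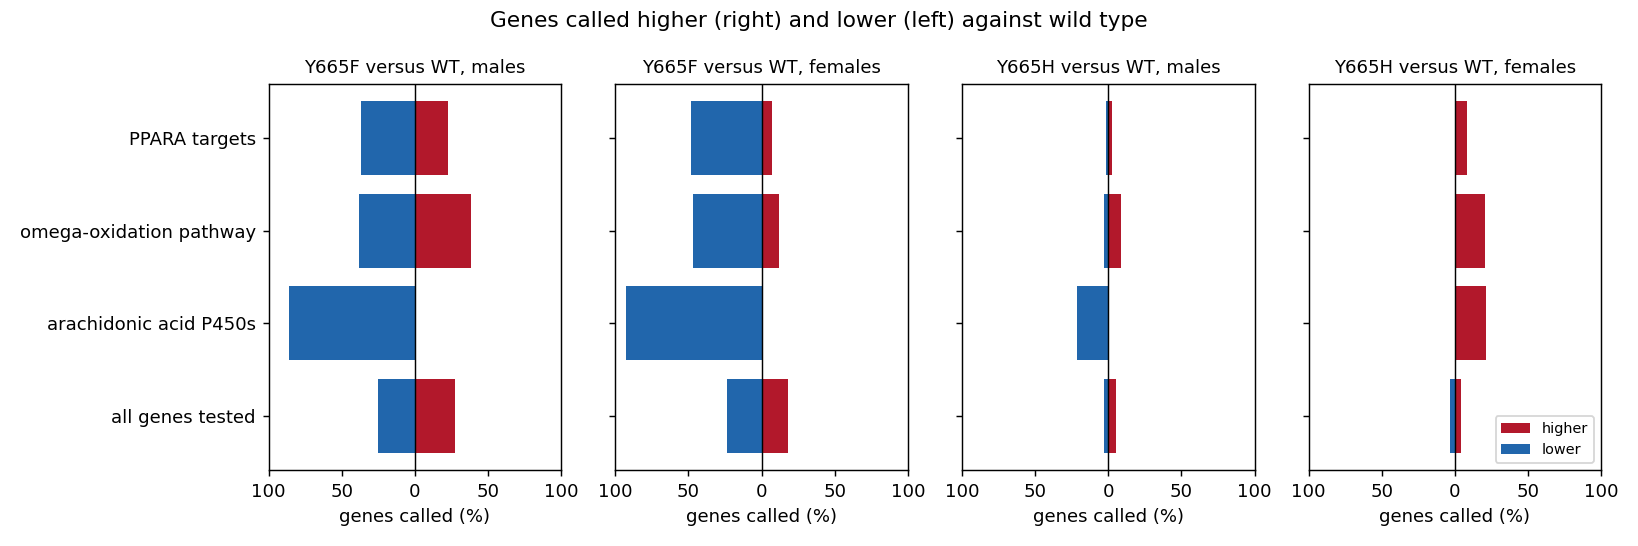
Percent of the tested genes of 3 lists and of all genes tested that were called higher (red, right) or lower (blue, left) against WT at an adjusted p under 0.05, a panel for each substitution and sex. The arachidonic acid P450s were called lower only in Y665F livers and Y665H males, and PPARA targets were called in both directions in every panel but that of Y665H females.

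The other Cyp4 genes and 2 related P450 genes, 12 of them tested, had 3 higher and 6 lower in Y665F males and 2 higher and 7 lower in Y665F females. These are 25% and 50% of the list in males, against 27.2% and 25.3% of all genes tested, and 16.7% and 58.3% in females, against 17.8% and 23.3%. Median log2 fold changes were -0.24 (-0.01 over all genes tested) and -0.38 (-0.02 over all genes tested). Cyp2u1, Cyp4f14 and Cyp4f15 are also in the list of arachidonic acid P450s, so these lists are not separate. Cyp4f16 was the highest with a mean of at least 1 CPM in Y665F males (1.48, adjusted p 8.49e-13) and Cyp2u1 the lowest (-2.96, adjusted p 2.47e-17), followed by Cyp4v3 and Cyp4f15 (-0.67). Cyp4v3, a fatty acid omega-hydroxylase of another subfamily, was called lower in Y665F males (-1.14), Y665F females (-0.62) and Y665H males (-0.43). In Y665F females the lowest were Cyp2e1 (-0.84), Cyp4f14 (-0.72) and Cyp4v3. In Y665H males Cyp4f16 was called higher (0.44) and Cyp4v3 was the 1 called lower.

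Among receptors, Ppara RNA was not called with either substitution in either sex (adjusted p 0.256 to 0.885 in edgeR's test), with log2 fold changes from -0.17 to 0.20, and its partner Rxra was called in Y665F females (-0.20, adjusted p 0.0393). Ghr, the growth hormone receptor, was higher in Y665F males (0.74, adjusted p 5.29e-06) and females (1.96, adjusted p 5.85e-14). Bcl6, a male-biased repressor, fell in Y665F males (-2.20, adjusted p 3.49e-09). Cux2, known as a repressor of male-biased genes in female liver, rose in Y665F males (7.13, adjusted p 3.31e-16) and females (1.71, adjusted p 4.24e-05) and fell in Y665H females (-1.30, adjusted p 0.0119).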

How the data were processed

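RNA was measured in 37 mouse liver libraries. The deposited files give counts for each gene symbol, and their whole numbers with unequal library totals show that the authors left them unscaled. Per the submitters' processing notes, FastQC 0.11.9, Trimmomatic 0.36, STAR, SAMtools 1.9, Picard 2.9.2, HTSeq 0.9.1 and mm10 are named, with no role or order. The annotation, the strand setting and filters are not given in the sources used here. Per the labels' protocols, RNA was depleted of ribosomal transcripts and read from both ends in strand-specific libraries. Kits of different makers are named without assignment to libraries, so a kit and a group cannot be told apart if they coincide. Rows that name no gene held 32.4% to 49.9% of counted items and stayed out of library sizes and tests; reads aligned to several places were 19.0% to 30.1% of counted items.

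Groups came from the titles. In R 4.3.3, edgeR 4.0.16 kept 15152 genes (filterByExpr by group, minimum count 10, minimum total 15), scaled with TMM and fitted 1 quasi-likelihood model with a mean per group to all libraries. The 11 comparisons were adjusted by Benjamini-Hochberg over all genes tested. Each SE is the size of the log2 fold change over the square root of F. Correlations used log2 CPM with a prior count of 2. Coordinates, coding identity (global alignment) and shared 100-base stretches came from GENCODE M21 on GRCm38, the assembly that mm10 names, and 95.7% of gene rows carry an M21 symbol. The fit was tested on simulated data.

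Alternatives were DESeq2 1.42.0, limma-voom (limma 3.58.1), RLE and upper-quartile scaling, no filter, a test against a log2 fold change of 1, the share of reads counted to no gene feature as a covariate, a replicate block, fits of only the groups compared, near-identical copies summed and each library left out in turn. The libraries differ between replicates by far more than sampling noise, so none was counted as a duplicate. The members and lists were chosen with earlier results of these data known. The text names all members, the 3 highest and 3 lowest called genes (mean CPM of at least 1) of the PPARA, omega-oxidation and other Cyp4 lists against WT, a panel of PPARA readouts and receptors, and the 5 genes most like Cyp4a12a, Cyp4a10 and Cyp4a14. Some genes of the panel are not reported here. Fasting-related genes were also listed: in Y665F males 4 of 24 (16.7%) were called higher and 5 (20.8%) lower, where 27.2% and 25.3% of all genes tested were, and in Y665F females 4 (16.7%) higher and 10 (41.7%) lower, where 17.8% and 23.3% were. Their median log2 fold changes were -0.08 and -0.43. In the Y665F interaction 8 (33.3%) were called higher and 0 lower, where 16.1% and 11.5% of all genes tested were. With Y665H 1 (4.17%) was higher and 1 (4.17%) lower in males, where 5.22% and 3.18% were, and 0 were called in females, where 4.4% and 3.1% were. The part of feeding in the Cyp4a values was not tested.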

Additional observations from a re-analysis of the deposited data

Results flagged for a closer look

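Of the 36 sets of a member in a group that were checked for a library far from its neighbours, 2 held such a library. Chance alone gives about 1 in 20, but that rate does not hold for sets at or next to 0 counts, where a single count is far from the rest by construction and a set at 0 throughout can hold no such library. Cyp4a12b was at 0.0333 CPM in Y665F female 2, from its single count, with 0 in the other five, which is the first of these cases. Cyp4a31 was at 4.73 CPM in Y665H male 3, below the other three Y665H males.

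Several genes responded differently in the sexes by edgeR's interaction test, given as the male minus the female log2 fold change. Of the members, Cyp4a10 (1.99, adjusted p 0.000373) and Cyp4a14 (5.00, adjusted p 5.72e-06) did so for Y665F, and Cyp4a12a (-4.18, adjusted p 0.00985) and Cyp4a12b (-2.73, adjusted p 0.0144) for Y665H.

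Among named PPARA targets and enzymes of omega-oxidation, the Y665F effect was higher in males for Acot3 (4.29), Abcd2 (3.94), Fgf21 (2.40), Acot1 (1.39), Acot4 (1.23), Pdk4 (1.16), Crot (1.04), Ehhadh (0.52) and Mgll (0.39). It was lower in males for Fitm1 (-1.86), Scp2 (-0.95), Adh7 (-0.93), Cyb5r3 (-0.61), Acadsb (-0.46) and Nudt19 (-0.24). Adjusted p in edgeR's test was 2.33e-10 for Abcd2 and 0.0484 for Nudt19, the ends of the range. Fgf21 was low in level, at 0.0939 to 2.26 CPM over the WT and Y665F libraries. For Y665H the interaction was called for Abcd2 (1.62), Scp2 (-0.50), Acadsb (-0.42) and Nudt19 (-0.35).

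Among other P450 genes and regulators the Y665F interaction was called for Cux2 (5.42), Cyp4f16 (1.36), Cyp4f14 (0.83), Cyp4v3 (-0.52), Ghr (-1.22), Bcl6 (-2.36) and Cyp2u1 (-2.40), and the Y665H interaction for Cyp4f16 (0.64), Cyp4v3 (-0.56) and Bcl6 (-1.42).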

How the results depend on the processing

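RLE and upper-quartile scaling kept the direction and call of all 66 member results. Of the 6 members, DESeq2 called 1 in Y665H males, 2 in Y665H females, 5 by sex in Y665F and 4 in the Y665F interaction. limma-voom called 1 in Y665H males, 0 in Y665H females, 4 in the Y665F interaction and 0 in the Y665H interaction. Against a log2 fold change of 1 the counts were 3 and 1 (Y665F males, females), 0 and 0 (Y665H), 2 and 3 (Y665H against Y665F), 2, 1 and 2 (sex in WT, Y665F, Y665H), and 1 and 0 (interactions). With the no-feature share as a covariate 0 were called in Y665H males, 3 by sex in WT and 2 by sex in Y665H. In fits of only the groups compared 0 were called in Y665H females, 3 by sex in Y665H and 1 in the Y665H interaction. Without the acute-phase-high libraries, a setting chosen after seeing the data, 1 was called in Y665H males and 2 by sex in Y665H. The test against a fold change asks for a larger effect by construction, and for the others the cause was not tested.

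Signs turned in the following cases. limma-voom gave Cyp4a14 -0.63 in Y665H males and -0.97 against Y665F males, and the covariate gave Cyp4a32 0.065 by sex in Y665F. Without the acute-phase-high libraries Cyp4a10 and Cyp4a32 were at 0.50 and 0.089 in Y665H males, and the Y665H interactions of Cyp4a10 and Cyp4a14 at 0.15 and 0.59. Summing near-identical copies replaces Cyp4a31 and Cyp4a32 by a total that is mostly Cyp4a10. By construction it gave 0.60 for Cyp4a32 in Y665F males, -1.06 for Cyp4a31 in Y665F females, -0.13 for Cyp4a31 in Y665H males, -0.73 for Cyp4a32 and 1.40 for Cyp4a31 between the substitutions in males and females, -0.69, 0.97 and -1.17 for Cyp4a32 by sex in WT, Y665F and Y665H (0.97 also for Cyp4a31 in Y665F), and interactions of 1.65 (Cyp4a32, Y665F) and -0.48 (Cyp4a31, Y665H).

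Leaving out each library gave 1 to 2 members called in Y665H females, 0 to 2 in Y665H males, 1 to 2 in the Y665H interaction, 3 to 6 by sex in WT and 3 to 5 in Y665H. The log2 fold change ran from -0.58 to 0.12 for Cyp4a10, from -0.56 to 0.81 for Cyp4a14 and from -0.27 to 0.032 for Cyp4a32 in Y665H males. For Cyp4a14 it ran from -0.90 to 0.47 against Y665F males and from -1.32 to 0.053 in the Y665H interaction. For Cyp4a32 it ran from -0.079 to 0.13 by sex in Y665F and from -0.081 to 0.26 in Y665H.

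Replicate numbers did not pair the samples, since correlations of same-numbered libraries ran from -0.225 to 0.171. With a replicate block 2 members were called in Y665H females, Cyp4a14 in Y665F males was at -0.052, and Cyp4a10 was not called there (0.43, adjusted p 0.266) or between the substitutions in males (-0.72, adjusted p 0.126).

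Counts over all genes moved by over 1.5 times in some settings. Against a log2 fold change of 1 they were 638 for 7955 and 351 for 6219 (Y665F males, females), 15 for 1273 and 2 for 1136 (Y665H), 527 for 6319 and 600 for 8564 (Y665H against Y665F), 274 for 7537, 192 for 6526 and 147 for 4676 (sex in WT, Y665F, Y665H), and 236 for 4190 and 1 for 794 (interactions). With the covariate they were 543 and 452 (Y665H males, females), 4379 and 2142 (sex in WT, Y665H), and 2602 and 1655 (interactions). In fits of only the groups compared they were 2186 and 80 (Y665H males, females) and 2292 (sex in Y665H), without the acute-phase-high libraries 386 (Y665H males) and 393 (Y665H interaction), with no filter 757 (Y665H females), and with DESeq2 1245 (Y665H interaction). Without Y665H male 3 they were 519 (Y665H males) and 332 (Y665H interaction), without WT male 5 or Y665H male 2 they were 799 or 644 (Y665H males), without WT female 2 or 5 or Y665H female 2, 5 or 6 they were 697, 645, 442, 689 or 2743 (Y665H females), and without Y665H female 6 they were 1355 (Y665H interaction). Low counts limit Cyp4a12a and Cyp4a12b outside WT and Y665H males, and 4 Y665H males limit that group.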
